A study of Mus musculus with 2 samples.

Results

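A set of 10 genes of the microtubule system were followed across mouse hippocampal neural stem cells: the alpha-tubulins Tuba1a, Tuba1b and Tuba1c, the beta-tubulins Tubb2a, Tubb2b, Tubb3, Tubb4b and Tubb5, the tubulin-sequestering protein Stmn1 and the lattice-binding protein Map1b. They were taken by gene symbol, and all 10 were found among the 15364 genes of the merged table. Hippocampal tissue of male mice (C57BL6/J, age 6 weeks) gave the cultured cells, which were profiled one by one with SORT-seq, a plate method that reads the 3′ end of polyadenylated RNA and tags each molecule. There was 1 culture in each of 4 states. The activated culture grew with FGF-2 and EGF at 20 ng/mL. The quiescent culture had BMP-4 at 50 ng/mL and FGF-2 but no EGF, for at least 3 days. The 24 h and 48 h exit cultures were quiescent cells put back into the activated medium with the BMP-4 antagonist noggin at 0.5 µg/mL. Every culture was sorted into 4 gates of punctate autofluorescence, the lowest being Low, followed by Low-mid, Mid-high and High. How many mice gave rise to each culture is not given in the sources used here.

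The table held 174 quiescent, 151 24 h exit, 151 48 h exit and 164 activated cells, with 3046628 to 6563487 transcript counts per culture, 32 to 46 cells per gate and a median of 19270 to 35946 per cell. The labels state 47 cells per condition. The quiescent and 24 h exit cells shared one plate, and the activated and 48 h exit cells shared the other. Markers of neural stem cells summed to between 3779 and 6506 CPM (a count divided by the total count of its group of cells, scaled to the usual base) in the 4 cultures. Those of neurons or neuroblasts, 9 of 10 of which were in the table, summed to between 15.8 and 33.1 CPM, and Dcx, a marker of migrating neuroblasts, was at 0 in all but the 24 h exit culture, where it stood at 0.328 CPM. Markers of microglia, 2 of 6 of which were in the table, and of endothelial or mural cells, 3 of 6, summed to no more than 1.52 CPM in any culture. Those of the oligodendrocyte lineage, 6 of 8 in the table, include genes that cultured stem cells also express and summed to between 1881 and 3684 CPM. Those of astrocytes, of which quiescent stem cells share several, summed to 1857 CPM in quiescent, 2880 CPM in 24 h exit, 1064 CPM in 48 h exit and 552 CPM in activated cells, so that they were low in the 2 cultures where most tubulins were high, and their part in the results was not tested.

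Microtubules are hollow polymers of alpha- and beta-tubulin dimers that grow and shrink from their ends. Several genes encode near-identical isotypes of each subunit, and cells change the mix with cell type and state. Dividing cells rebuild their microtubules into the mitotic spindle, while in neurons and radial glia they form stable tracks for transport. Tuba1a and Tubb2b are known for their part in the developing brain, where mutations disturb neuronal migration, and Tubb3 is widely used as a neuronal marker. Stmn1, stathmin, binds free tubulin dimers and favours microtubule disassembly. Map1b binds along the lattice and is known from growing axons.

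The 3 alpha-tubulin genes lie together on mouse chromosome 15 in the GENCODE annotation of build GRCm38: Tuba1b at chr15:98931425-98934565 (minus strand), Tuba1a at chr15:98949837-98953703 (minus strand) and Tuba1c at chr15:99029891-99038110 (plus strand). Their 3′ ends are alike. Of the 60-base stretches in the last 500 bases of the longest transcript, 55.3% of those of Tuba1a, 62.8% of those of Tuba1b and 67.3% of those of Tuba1c also occur in another gene, so a read from this region need not belong to 1 gene. Tubb2a (chr13:34074274-34078007) shared 38.8%, with Tubb2b among the partners, and Tubb4b (chr2:25222160-25224702) shared 29.3%, all with pseudogenes. For Tubb2b, Tubb3, Tubb5 and Map1b the share was 0, and for Stmn1 it was 0.227%. How shared reads were assigned is not given in the sources used here.

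Promoter windows, from 250 bases before to 50 after the gene start, were found for 8 members in a RefSeq table of GRCm38.p6. Stmn1 and Tubb2b had no entry. The sequences of the 4 tubulin genes that are described below as higher in dividing cells are shown 5′ to 3′ on the gene's own strand, because members that move together may be compared at their starts. Capitals mark the CCAAT box (CCAAT on either strand) and the cell cycle gene homology region, or CHR (TTTGAA or TTCGAA on either strand). CCAAT boxes bind the factor NF-Y, and the CHR is an element of many genes of G2 and mitosis. The windows are chr2:25224653-25224952 for Tubb4b, chr15:99029641-99029940 for Tuba1c, chr17:35838252-35838551 for Tubb5 and chr15:98934341-98934640 for Tuba1b.
Tubb4b: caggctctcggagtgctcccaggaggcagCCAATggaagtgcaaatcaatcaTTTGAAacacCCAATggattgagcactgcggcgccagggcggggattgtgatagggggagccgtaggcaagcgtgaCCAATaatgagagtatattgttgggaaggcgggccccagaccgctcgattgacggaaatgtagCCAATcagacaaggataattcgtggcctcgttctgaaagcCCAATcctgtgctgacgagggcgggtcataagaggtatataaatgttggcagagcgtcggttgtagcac
Tuba1c: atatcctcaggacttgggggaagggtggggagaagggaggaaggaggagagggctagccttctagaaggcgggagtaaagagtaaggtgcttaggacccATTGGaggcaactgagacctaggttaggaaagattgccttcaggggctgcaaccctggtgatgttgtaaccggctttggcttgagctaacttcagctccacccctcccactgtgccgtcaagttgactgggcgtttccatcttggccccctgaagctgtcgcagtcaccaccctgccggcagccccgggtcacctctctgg
Tubb5: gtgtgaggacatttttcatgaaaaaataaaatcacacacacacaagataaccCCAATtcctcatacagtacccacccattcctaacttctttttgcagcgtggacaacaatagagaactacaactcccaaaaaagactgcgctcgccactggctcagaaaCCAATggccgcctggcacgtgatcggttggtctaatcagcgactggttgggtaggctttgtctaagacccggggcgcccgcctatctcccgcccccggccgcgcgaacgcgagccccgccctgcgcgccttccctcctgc
Tuba1b: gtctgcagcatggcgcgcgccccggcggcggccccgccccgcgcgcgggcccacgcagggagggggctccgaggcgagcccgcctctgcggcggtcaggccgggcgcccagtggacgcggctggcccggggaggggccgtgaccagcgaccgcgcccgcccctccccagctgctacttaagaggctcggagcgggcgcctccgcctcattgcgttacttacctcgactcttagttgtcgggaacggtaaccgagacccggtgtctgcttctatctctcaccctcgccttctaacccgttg

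The Tubb4b window held 5 CCAAT boxes, which began 221, 188, 122, 59 and 19 bases before the gene start, and 1 CHR, which began 198 bases before it. Of 32851 promoter windows of the same length, 37.4% held at least 1 CCAAT box, 3.37% held 3 or more, 19.2% held a CHR and 7.52% held both elements. Tubb5 had 2 CCAAT boxes, Tuba1a, Tuba1c and Tubb3 had 1 each, and none of the 4 had a CHR. No letters of either motif were found in the Tuba1b, Tubb2a and Map1b windows. A match is a run of letters and not a measured binding site.

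Tubulin transcripts were more abundant in the activated and 48 h exit cultures than in the quiescent and 24 h exit cultures. Each of these pairs of cultures shared a plate, so plate and state cannot be told apart in this split. The 8 tubulin genes together made up 1974 CPM in the quiescent culture, 1604 CPM at 24 h of exit, 3853 CPM at 48 h and 5198 CPM in the activated culture. Per cell this was a mean of 54.6, 32.4, 105 and 208 counts in the same order. Against ERCC, the spike-in RNA that the wells received, it was 151, 89.1, 337 and 617 counts per 1000 spike-in counts. The order of the cultures was the same on all 3 scales. CPM here are summed counts of all cells of a culture divided by their total. Each molecule gives 1 count whatever its length, so levels were not divided by length. Levels of different genes still depend on how reads from alike 3′ ends were assigned, which is not given, so ranks between genes carry that limit. Intervals in brackets are exact Poisson 95% intervals and cover counting error only. With 1 culture per state no test between states was possible, and a difference is described by its log2 ratio with 10 CPM added, a scale on which low genes change less.

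**Figure D1:**
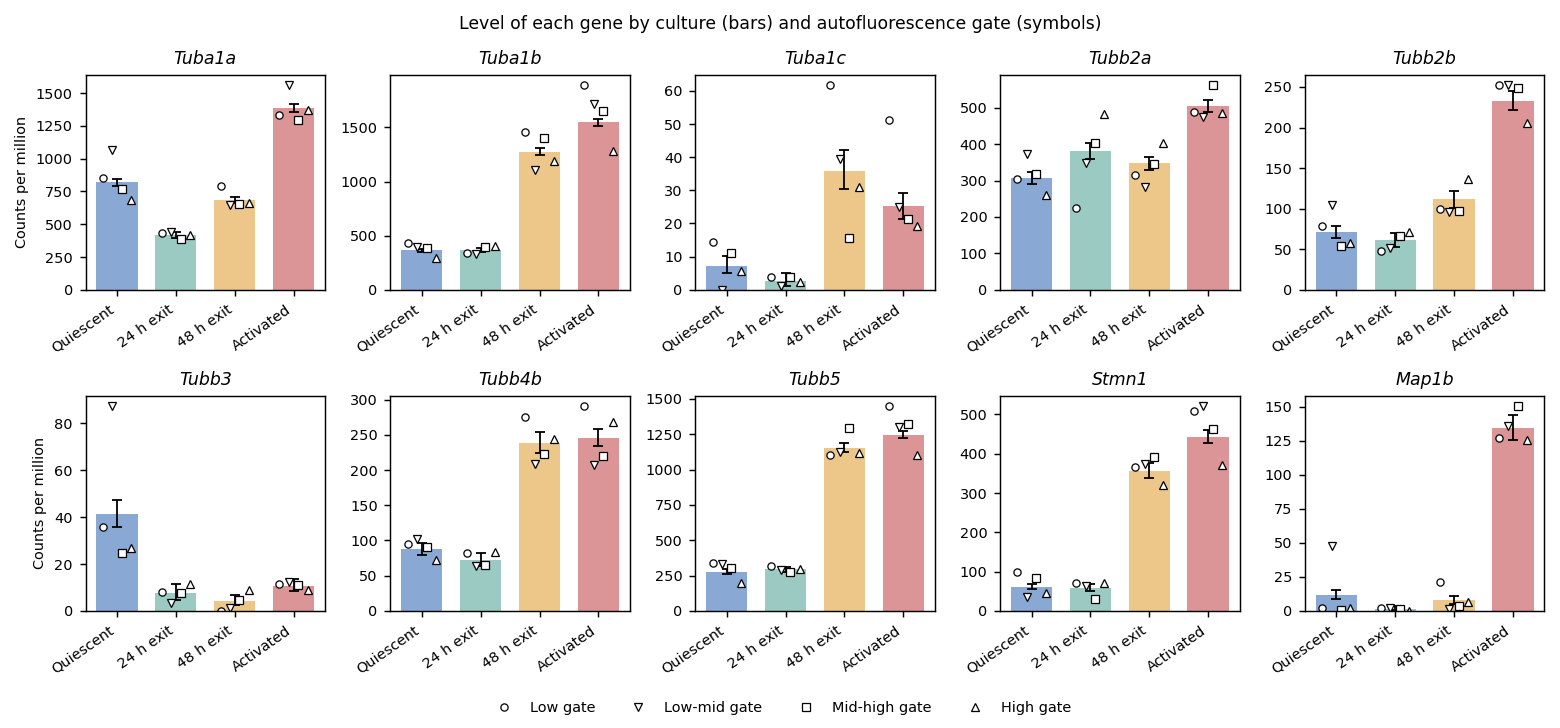
Level of the 10 genes in CPM (vertical axes, each from 0) in the 4 cultures. Bars are all cells of a culture with exact Poisson 95% intervals, and open symbols are the 4 autofluorescence gates. Tuba1b, Tubb5, Tubb4b and Stmn1 form a low pair of cultures and a high pair, Map1b is high in the activated culture alone, and Tubb3 is highest in the quiescent culture. The cultures of each pair shared a plate.

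Between the activated and quiescent cultures, 7 of the 10 genes were at least 2-fold higher in activated cells and 1, Tubb3, was at least 2-fold lower. Relative to spike-in counts Tubb3 was at -0.89 and no longer past 2-fold. Over the 11011 genes with enough counts, 9.12% were 2-fold or more higher and 6.5% 2-fold or more lower. The median log2 ratio was 1.49 for the 10 genes and 0.07 for all genes. These cultures were on different plates, so the plate and the state of the cells cannot be told apart.

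Among the alpha-tubulins, Tuba1b stood at 364 CPM (347 to 381) in quiescent cells, 367 CPM (346 to 389) at 24 h, 1276 CPM (1242 to 1311) at 48 h and 1546 CPM (1516 to 1576) in activated cells. Its 4 gate values were 293 to 430 CPM in the quiescent culture and 1279 to 1894 CPM in the activated culture, with no overlap, and the log2 ratio of activated to quiescent was 2.06. Tuba1a stood at 819 CPM (794 to 845), 419 CPM (396 to 443), 684 CPM (659 to 710) and 1385 CPM (1357 to 1414) in the same order. It thus had the highest CPM of the 10 in quiescent cells, while Tuba1b had the highest at 48 h and in activated cells. These ranks rest on genes whose 3′ ends are alike, as given above. The gate values of the 2 genes overlapped in the activated culture, at 1295 to 1564 CPM for Tuba1a and 1279 to 1894 CPM for Tuba1b. Tuba1c was rare throughout, at 7.27 CPM in quiescent, 2.63 CPM in 24 h exit, 35.9 CPM in 48 h exit and 25.2 CPM in activated cells.

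Among the beta-tubulins, Tubb5, a beta-tubulin abundant in dividing cells, stood at 278 CPM (263 to 293) in quiescent cells, 293 CPM (274 to 313) at 24 h, 1155 CPM (1123 to 1189) at 48 h and 1248 CPM (1221 to 1275) in activated cells. The log2 ratio of activated to quiescent was 2.13. Tubb4b stood at 87.5, 72.6, 238 and 246 CPM, with a log2 ratio of 1.39. In both genes the 2 exit times lay apart, with 24 h beside the quiescent culture and 48 h beside the activated one. In each case the neighbouring cultures also shared a plate.

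Tubb2a and Tubb2b are neighbours on chromosome 13. Tubb2a varied least of the 10, at 307, 381, 347 and 505 CPM, and its log2 ratio of activated to quiescent was 0.70. Tubb2b stood at 70.8, 60.7, 111 and 233 CPM with a log2 ratio of 1.59, and its 48 h value lay nearer to the quiescent value than to the activated one. Tubb3 was highest in the quiescent culture instead, at 41.4 CPM (35.8 to 47.5) in quiescent cells, 7.55 CPM (4.79 to 11.3) at 24 h, 4.36 CPM (2.59 to 6.90) at 48 h and 10.7 CPM (8.32 to 13.5) in activated cells. In the quiescent culture its gate values were 24.7 to 87.5 CPM, above every gate value of the other 3 cultures, of which the highest was 12.5 CPM. After each cell was thinned to 12488 counts, 25.6% of quiescent cells held a Tubb3 transcript, against 8.20% at 24 h, 5.71% at 48 h and 13.9% of activated cells. The neuronal marker list was not highest in the quiescent culture, at 17.7 CPM there and 33.1 CPM in activated cells.

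Stmn1 stood at 62.0 CPM (55.2 to 69.4) in quiescent cells, 58.8 CPM (50.5 to 68.1) at 24 h, 357 CPM (339 to 376) at 48 h and 444 CPM (428 to 460) in activated cells, with a log2 ratio of activated to quiescent of 2.66. In thinned cells 30.1%, 29.5%, 90.7% and 96.2% held a Stmn1 transcript. A minority of cells gave much of the low values: the 5 highest of 174 quiescent cells held 46.4% of that culture's Stmn1 counts, against 7.32% for the 5 highest of 164 activated cells.

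Map1b stood at 135 CPM (126 to 144) in activated cells, and 69.6% of thinned activated cells held a transcript. It stood at 11.9 CPM in quiescent cells, 1.31 CPM (0.358 to 3.36) at 24 h and 7.76 CPM (5.31 to 10.95) at 48 h, where 3.21%, 1.64% and 8.57% of thinned cells held it. The quiescent value came largely from 1 cell: 50.3 of the 57.3 counts lay in a single cell of the Low-mid gate that was called G1 and grouped in cluster 0. Without that cell the quiescent level was 1.46 CPM, and the log2 ratio of activated to quiescent went from 2.72 to 3.66. Map1b separated the activated culture from the other three in all gates, at 126 to 151 CPM against no more than 47.7 CPM.

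**Figure D2:**
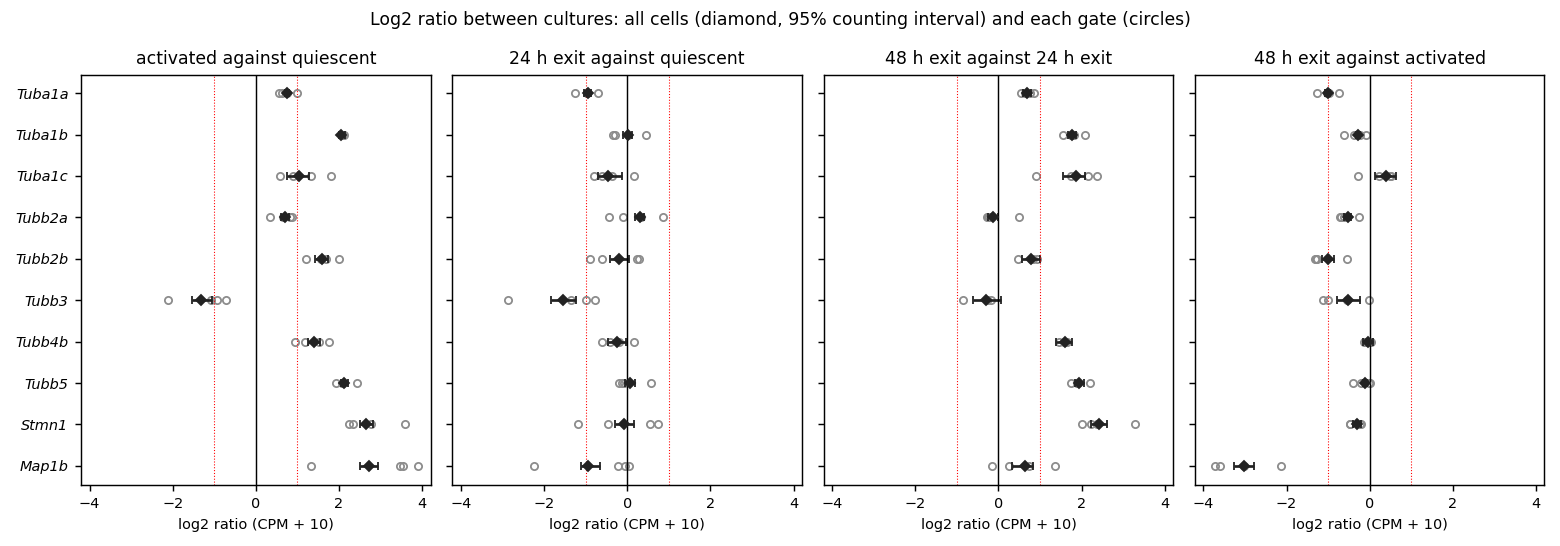
Log2 ratio between cultures, with 10 CPM added, for the 10 genes in 4 comparisons. Diamonds are all cells with exact binomial 95% counting intervals, circles the same ratio within each of the 4 gates, and dotted lines mark 2-fold. In all, 5 genes lie past 2-fold in the third panel, and Map1b lies farthest to the left in the fourth.

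Over the first day of exit most of these genes differed little. Between the 24 h exit and quiescent cultures, which shared a plate, 0 of the 10 genes were 2-fold or more higher and 1 was 2-fold or more lower, against 1.23% and 2.27% of 10462 genes. That gene was Tubb3, at -1.55 (-1.83 to -1.22). Tuba1a followed at -0.95 (-1.04 to -0.86), a 1.95-fold lower level. Within the cells the authors called G0, 146 quiescent and 138 at 24 h, Tuba1a was again lower by a log2 ratio of -0.93 and Tubb3 by -1.56. Tuba1b (0.01), Tubb5 (0.07) and Stmn1 (-0.07) had intervals that spanned 0 over all cells. In G0 cells alone Tuba1b was at 0.30 (0.17 to 0.42) and Stmn1 at 0.52 (0.21 to 0.83), both higher at 24 h. Map1b was at -0.95 over all cells and at -0.02 (-0.21 to 0.22) without the single quiescent cell that held most of its counts.

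Between 24 h and 48 h of exit, 5 genes were 2-fold or more higher and 0 lower, against 4.49% and 2.62% of 10324 genes. The 5 were Stmn1 (2.41), Tubb5 (1.94), Tuba1c (1.86), Tuba1b (1.77) and Tubb4b (1.59). Tubb2b (0.78), Tuba1a (0.69) and Map1b (0.65) were higher by less, and Tubb2a was at -0.13. The cell cycle calls of the 2 cultures differed, with 3 of 151 cells called G2/M at 24 h and 58 of 151 at 48 h. When only G0 cells were compared, 138 against 22, 0 genes were past 2-fold. There Stmn1 was at 0.98 (0.51 to 1.42), Tubb5 at 0.68 (0.45 to 0.90) and Tuba1b at 0.33 (0.11 to 0.54). The 2 times were on different plates, so plate and time cannot be told apart.

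Between the 48 h exit and activated cultures, which shared a plate, 0 genes were 2-fold or more higher and 2 were 2-fold or more lower, against 1.25% and 1.63% of 10780 genes. These were Map1b at -3.02 (-3.25 to -2.77) and Tuba1a at -1.01 (-1.07 to -0.95), with Tubb2b just inside the limit at -0.999 (-1.14 to -0.86). Tubb5 (-0.11), Tubb4b (-0.04), Tuba1b (-0.27) and Stmn1 (-0.31) lay much closer to 0. The same split was seen among cells of equal phase. Map1b was at -3.09 in G1 cells, -2.67 in S cells and -3.17 in G2/M cells, Tuba1a at -0.78, -0.96 and -1.05, and Tubb2b at -0.65, -1.11 and -1.07. Tubb5 was at 0.13, -0.12 and 0.08 in the same phases.

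The isotype mix also differed between cultures. Shares are of the summed counts of the alpha-tubulin or the beta-tubulin genes of this set. Tubulins outside the set are left out, such as Tubb6 at 135, 40.4, 183 and 225 CPM in quiescent, 24 h, 48 h and activated cells. Of these alpha-tubulin counts, Tuba1a took 68.8% (67.6 to 70.0, exact binomial 95% interval) in quiescent cells, 53.1% at 24 h, 34.3% (33.3 to 35.3) at 48 h and 46.9% (46.1 to 47.6) in activated cells. Tuba1b took nearly all of the rest, with 63.9% at 48 h, and Tuba1c at most 1.80%. Of these beta-tubulin counts, Tubb5 took 35.4% in quiescent cells, 35.9% at 24 h, 62.2% at 48 h and 55.7% in activated cells, while Tubb2a took 39.1%, 46.8%, 18.7% and 22.5%. Tubb3 made up 5.27% of these beta-tubulin counts in quiescent cells and at most 0.927% elsewhere. The alpha-tubulin shares rest on genes whose 3′ ends are alike, as given above.

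**Figure D3:**
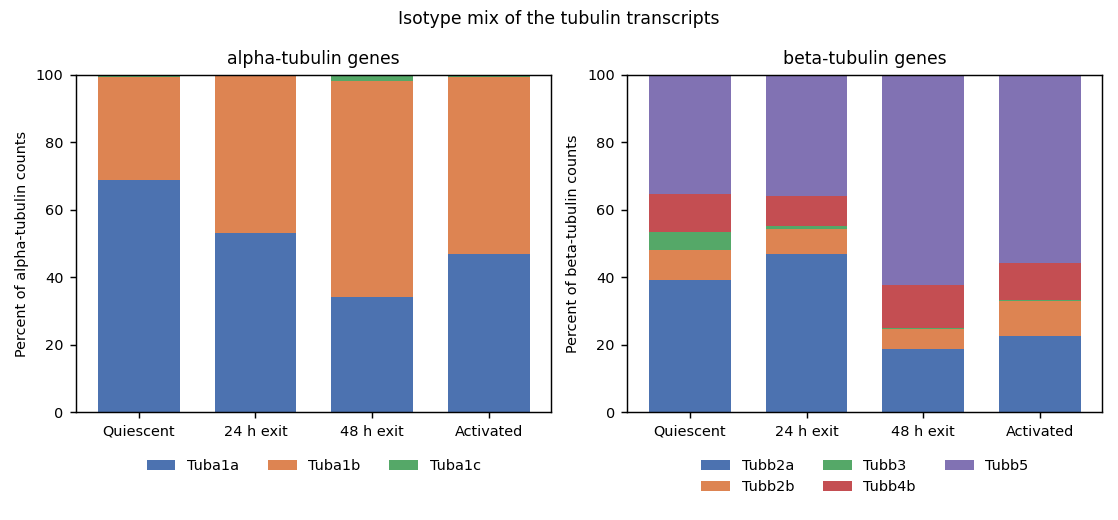
Percent of alpha-tubulin counts (left, 3 genes) and of beta-tubulin counts (right, 5 genes) taken by each gene in each culture, all cells summed. Tuba1a goes from 68.8% in the quiescent culture to 34.3% at 48 h, and Tubb5 goes from 35.4% to 62.2%.

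The mix followed the called phase within a culture as well. In the 48 h exit culture Tuba1a took 58.8% of alpha-tubulin counts in G0 cells, 47.4% in G1, 35.4% in S and 28.0% in G2/M. In the activated culture it took 66.1% in G1 and 43.6% in G2/M. Tubb5 took 35.6% of beta-tubulin counts in G0 cells and 65.2% in G2/M cells at 48 h.

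Stmn1, Tuba1b and Tubb5 were higher in cells called S or G2/M than in cells called G0. Tuba1c was called higher as well, but in S this did not hold in the quiescent culture. Phases are the authors' calls. How they were made is not given. Scores of S, G2/M and G0 for each cell stand beside them, so they likely rest on cell cycle genes in the same cells. Genes that vary together with those cell cycle genes would then differ between phases by construction, and the p-values below carry that limit. Tubb4b is on a widely used list of G2/M genes and is therefore described but left out of the counts. Counts were summed per culture and phase where at least 10 cells were present, giving 11 sums, and tested with edgeR with culture as a block. The cultures are the replicates and differ in state, so a difference common to them was sought. Not every culture held a sum of every phase. G0 and G2/M occurred together in the 48 h exit culture alone, and G0 with G1 or S in the quiescent and 48 h exit cultures. The activated culture had no G0 sum, and the 24 h exit culture had only G0. A direct comparison of G2/M with G0 within a culture thus came from the 48 h exit culture alone. Between S and G0, 5 of the other 9 genes were called higher, against 6.27% of 10656 genes. Between G2/M and G0 5 were called higher, against 5.55% of genes, between G1 and G0 2 were called higher, against 0.347%, and between G2/M and S 1 was called higher, against 1.9%. None of the 9 was called lower in any of the 4, while at an unadjusted p under 0.05 Tubb2a was lower in G1 and S, and Tubb2b in S, than in G0.

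Stmn1 in the 48 h exit culture stood at 84.1 CPM in G0 cells, 208 CPM in G1, 351 CPM in S and 497 CPM in G2/M. In activated cells it stood at 222 CPM in G1, 466 CPM in S and 508 CPM in G2/M, and in quiescent cells at 23.3 CPM in G0, 73.3 CPM in G1 and 173 CPM in S. Each step up to S was thus seen in every culture that held the phases. The log2 difference from G0 was 1.40 (SE 0.22, edgeR adjusted p = 8.37e-05) in G1, 2.34 (SE 0.21, adjusted p = 7.22e-12) in S and 2.62 (SE 0.21, adjusted p = 8.16e-13) in G2/M. The few dividing cells of the other cultures were as high: the 5 quiescent cells called G2/M stood at 661 CPM and the 3 at 24 h at 843 CPM, both too few to enter the test.

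Tuba1b in the 48 h exit culture stood at 398 CPM in G0, 778 CPM in G1, 1267 CPM in S and 1725 CPM in G2/M, and Tubb5 at 383, 611, 1180 and 1557 CPM. In activated cells Tuba1b went from 631 CPM in G1 to 1587 CPM in S and 1844 CPM in G2/M, and Tubb5 from 557 to 1286 and 1468 CPM. Tuba1b was higher than in G0 by 1.54 (SE 0.15, edgeR adjusted p = 7.57e-11) in S and 1.91 (SE 0.16, adjusted p = 3.22e-12) in G2/M. Tubb5 was higher by 1.41 (SE 0.14, adjusted p = 4.37e-10) and 1.76 (SE 0.16, adjusted p = 1.34e-11). Between G2/M and S both were at 0.37 and 0.35 with adjusted p = 0.163 and 0.157, which did not pass the threshold of 0.05. For both genes the larger part of the difference thus lay between G0 and S.

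The CPM of Tuba1c and Tubb4b in G2/M were more than 2-fold those in S in both the 48 h exit and the activated culture. Tuba1c stood at 10.2 CPM (5.57 to 17.1) in S and 75.8 CPM (63.2 to 90.2) in G2/M cells at 48 h, and at 9.42 CPM (5.90 to 14.3) and 45.3 CPM (38.1 to 53.4) in activated cells. G2/M was above S by 2.78 (SE 0.34, edgeR adjusted p = 7.81e-08) and above G0 by 5.94 (SE 0.77, adjusted p = 1.20e-07). Tuba1c had 0 counts in the 22 G0 cells at 48 h and 2.00 counts in the 138 G0 cells at 24 h. Its call in S against G0 (3.16, adjusted p = 0.00904) was lost without the 48 h culture (adjusted p = 0.0801) and without the activated culture (adjusted p = 0.0887). Tubb4b stood at 159 CPM in S and 374 CPM in G2/M cells at 48 h, and at 162 and 356 CPM in activated cells, a difference of 1.27 (SE 0.15). Both promoter windows are printed above with their motifs, and a part of those motifs in these levels was not tested.

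**Figure D4:**
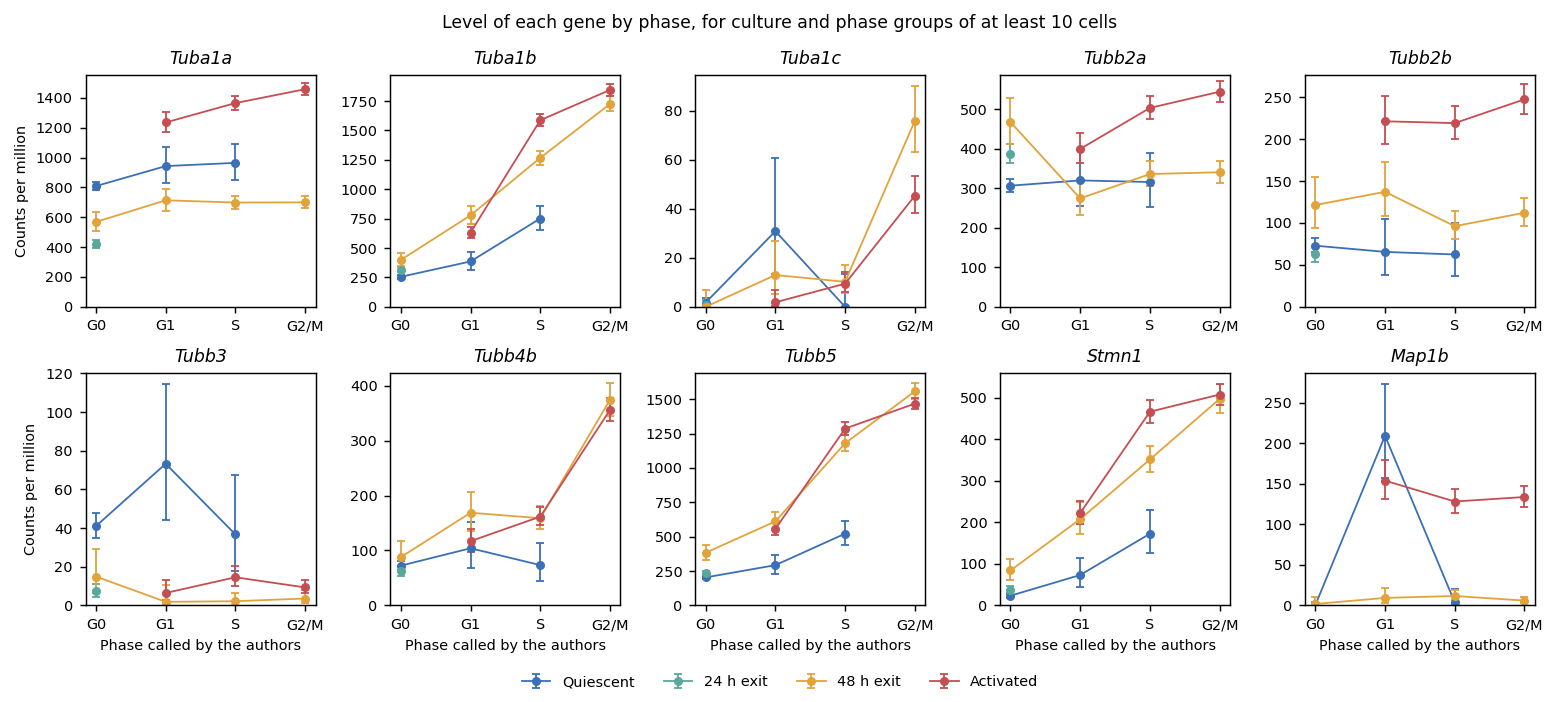
Level of the 10 genes in CPM by the phase the authors called, one line per culture, for groups of at least 10 cells, with exact Poisson 95% intervals. Tuba1b, Tubb5 and Stmn1 climb from G0 to S, Tuba1c and Tubb4b climb between S and G2/M, and Tuba1a and Tubb2b lie higher in the activated than in the 48 h exit culture in G1, S and G2/M. The quiescent G1 point of Map1b holds the single cell described in the text.

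Tuba1a, Tubb2a, Tubb2b and Tubb3 passed in none of the 4 phase contrasts. Tuba1a stood at 569, 714, 699 and 700 CPM in G0, G1, S and G2/M cells at 48 h and at 1235, 1365 and 1458 CPM in G1, S and G2/M activated cells. Its largest difference was 0.21 between G2/M and G0 (SE 0.15, edgeR adjusted p = 0.454). Tubb2b stood at 96.1 to 137 CPM over the phases at 48 h and 219 to 247 CPM over G1, S and G2/M in activated cells, without overlap between the cultures. Tubb2a was lower in G1 than in G0 by a difference of -0.57 (adjusted p = 0.0607), and this passed without the quiescent culture, at -0.91 (adjusted p = 0.00151), as did its differences in S (-0.64, adjusted p = 0.0039) and G2/M (-0.55, adjusted p = 0.0118).

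Map1b was called higher in G1, S and G2/M than in G0, but on few cells. There was 1 count in 146 quiescent G0 cells, 4.00 in 138 G0 cells at 24 h and 1 in 22 G0 cells at 48 h, and 54.3 in 12 quiescent G1 cells, of which 50.3 were in the single cell named above. The edgeR difference of G1 from G0 was 7.62 with that cell and 4.11 (SE 0.97, adjusted p = 0.0184) without it. Without the quiescent culture it was 2.28 (adjusted p = 0.433). In activated cells the level was nearly even, at 154 CPM (131 to 179) in G1, 128 CPM (114 to 144) in S and 134 CPM (121 to 147) in G2/M.

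Across single cells the members were correlated to unequal degrees. After centring on each culture's mean, Pearson's r over 640 cells was 0.67 between Tuba1b and Tubb5, 0.55 between Tuba1b and Stmn1, 0.51 between Tubb5 and Stmn1 and 0.50 between Tuba1b and Tubb4b. Tuba1a had r = 0.36 with Tubb2a and 0.34 with Tubb2b, and Tubb2a had 0.36 with Tubb2b. Tuba1a was nearly as close to Tuba1b, Tubb5 and Tubb4b, each at r = 0.31, whereas Stmn1 had 0.06 with Tuba1a and -0.01 with Tubb2a. Some of these values join genes with alike 3′ ends, and cells share library and depth, so they are given as descriptions. Among 8011 other genes seen in at least 20% of all cells, with ribosomal protein, mitochondrial and predicted genes left out, those closest to Tuba1b were H2afz (r = 0.64) and Ccna2 (0.59), a histone variant and a cyclin. Closest to Stmn1 was Hmgn2 (0.67), and closest to Tubb5 were Ccna2 (0.57) and Cdk1 (0.57). For Tubb4b they were Cenpa (0.60) and Tpx2 (0.58), a centromere and a spindle protein, and for Tuba1c Ccnb2 (0.55) and Ccnb1 (0.50), the cyclins of mitosis. Tuba1a had its highest values with Hmgcs1 (0.30), Fdps (0.28) and Acat2 (0.27), which work in sterol synthesis, and Tubb2a, Tubb2b, Tubb3 and Map1b reached no more than 0.26 with any of these genes.

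The authors' 4 clusters largely separated the cultures: 166 of 174 quiescent cells were in cluster 1, 163 of 164 activated cells in cluster 2, and 145 of 151 cells at 24 h in cluster 0. The 48 h exit culture was divided, with 41 cells in cluster 0 and 109 in cluster 3. Within it, cells of cluster 0 stood at 648 CPM for Tuba1b, 532 CPM for Tubb5 and 163 CPM for Stmn1, and those of cluster 3 at 1499, 1375 and 424 CPM. Tuba1a was close in both, at 633 CPM (586 to 682) and 702 CPM (672 to 732). Map1b was at 4.69 and 8.56 CPM, far below the 135 CPM of cluster 2. How the clusters were made is not given, and they may rest on the expression of these same cells, so these values are a description.

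Few of these genes passed the test between autofluorescence gates. Between the High and Low gates, tested with edgeR on 8 sums of culture and gate with culture as a block, 1 of the 10 genes was called, against 2.38% of 8739 genes called in either direction and 0.481% called lower. It was Tuba1c, lower in the High gate by a log2 difference of -1.03 (SE 0.25, adjusted p = 0.0317). Its level in the Low and High gates was 14.3 and 5.80 CPM in the quiescent, 3.98 and 2.28 CPM in the 24 h exit, 61.8 and 31.1 CPM in the 48 h exit and 51.2 and 19.4 CPM in the activated culture. It was lower in the High gate of all 4 cultures, on 2.00 counts in each gate at 24 h.

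The share of cells called S or G2/M was also lower in the High gate of 3 cultures and not at 24 h, at 100% in the Low and 78.3% in the High gate of the activated culture, 81.0% and 60.0% at 48 h, 14.0% and 6.82% in the quiescent culture and 3.13% and 5.41% at 24 h. Within G2/M cells alone, Tuba1c stood at 68.4 CPM (49.1 to 92.8) in the Low and 32.5 CPM (23.6 to 43.6) in the High gate of the activated culture, and at 133 CPM (97.9 to 176) and 65.8 CPM (46.4 to 90.7) at 48 h. Its G2/M levels in the Low-mid and Mid-high gates were 49.3 and 47.7 CPM in the activated culture and 84.5 and 20.8 CPM at 48 h. In S cells the Low and High gates stood at 11.5 and 11.3 CPM in the activated culture and at 12.1 and 15.9 CPM at 48 h, on few counts. With cells of 1 phase class per culture the edgeR difference was -0.84 (adjusted p = 0.169). The call was also lost without the quiescent culture (adjusted p = 0.0554), without the 48 h exit culture (adjusted p = 0.204) and without the activated culture (adjusted p = 0.28).

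The next smallest p was that of Tubb2a, at 0.43 (SE 0.16, edgeR adjusted p = 0.151), and with TMM scaling it was higher in the High gate of all 4 cultures. On plain CPM its Low and High gates stood at 223 and 482 CPM at 24 h and at 316 and 403 CPM at 48 h, but at 305 and 260 CPM in the quiescent and 488 and 486 CPM in the activated culture, so the direction in those 2 rests on the scaling. With all 4 gates entered as a linear rank in edgeR, Tubb2a was called (0.15 per gate, adjusted p = 0.0185). That setting called 638 of 8934 genes in either direction, a larger share than the test of High against Low. Stmn1 was at -0.27 (adjusted p = 0.392), and the other 7 genes had adjusted p between 0.645 and 0.969.

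**Figure D5:**
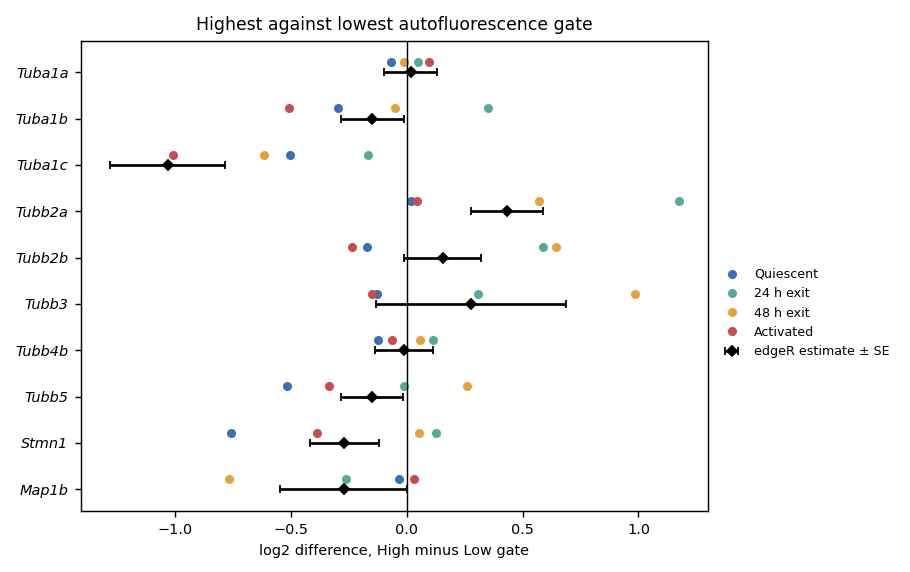
Log2 difference between the High and the Low autofluorescence gate for the 10 genes. Diamonds with bars are the edgeR estimate and its standard error, and coloured points are the 4 cultures, with TMM scaling and 10 CPM added. On this scale Tuba1c lies below 0 and Tubb2a above 0 in all 4 cultures.

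Other microtubule genes were read from lists of their role. Of 18 proteins of the mitotic spindle, 16 were 2-fold or more higher in activated than in quiescent cells and 17 were 2-fold or more higher at 48 h than at 24 h of exit, with medians of 1.97 and 2.19, against 9.12% and 4.49% of all genes. Tpx2, which starts microtubule growth on the spindle, stood at 27.1, 21.7, 180 and 224 CPM in quiescent, 24 h, 48 h and activated cells. Of 15 plus-end proteins, 1 was 2-fold or more higher and 4 were 2-fold or more lower in activated than in quiescent cells, with a median of -0.03, against 9.12% and 6.5% of all genes. Nav1, a plus-end protein known from neurons, had the largest difference there, at 921 CPM in quiescent cells, 186 CPM at 24 h, 161 CPM at 48 h and 102 CPM in activated cells. Of 16 lattice-binding proteins other than Map1b, 0 were higher and 3 lower against the same shares, and Map7d2 stood at 135, 44.0, 30.5 and 17.2 CPM, highest in quiescent cells, where Map1b was highest in activated cells.

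Of 6 further tubulins with enough counts, 0 were past 2-fold between activated and quiescent cells, against 9.12% of all genes higher and 6.5% lower. Tubb6, a beta-tubulin outside the set, stood at 135, 40.4, 183 and 225 CPM. It was thus lower at 24 h than in quiescent cells by -1.52, as Tubb3 was, and higher at 48 h than at 24 h by 1.94, as Tubb5 was. Tubg1, the gamma-tubulin that seeds microtubules, stood at 19.7, 16.7, 31.3 and 37.6 CPM. Between activated and quiescent cells, the folding cofactors (6 genes), tubulin-modifying enzymes (13), the gamma-tubulin ring complex (8) and transport motors (16) each had 0 genes past 2-fold. Of 6 severing enzymes 1, Fignl1, was higher, at 1.43. The same shares of all genes apply to these lists. In the phase test Tubb6 was higher in G2/M than in S by 0.90 (edgeR adjusted p = 5.60e-05), and Fignl1 was higher in S than in G0 by 4.29 (adjusted p = 1.03e-10).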

How the data were processed

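Per the labels' protocols, single cells were sorted into plates, lysed by heat and made into 1 library per plate by SORT-seq and CEL-Seq2. Per the submitters' processing notes, the tools were Seurat 4.1.1, BWA 0.7.15 and R 4.2.0, with hg19 and mm10 listed as builds and no role given. The authors deposited an expected count in each entry, which corrects for molecules that share 1 of 4096 identifiers. Their per-cell table, per the file headers, also holds a percent of mitochondrial and ribosomal protein counts, scores of cell cycle phase and the autofluorescence intensity of the sorter in arbitrary units, besides the phase, cluster, condition and gate labels. How cells were filtered and how phases and clusters were called is not given in the sources used here. In all, 128 wells outside the per-cell table were not used.

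Counts were summed per culture, gate, phase or cluster and given as CPM. Ratios between cultures used 10 CPM added, genes with at least 20 counts over the 2 cultures, and exact conditional binomial intervals, and 2-fold was the limit for a call, since 1 culture per state allows no test. For tests the sums were rounded and tested in R 4.3.3 by the quasi-likelihood method of edgeR 4.0.16, after TMM scaling and filterByExpr, blocked on culture and adjusted by Benjamini-Hochberg (threshold 0.05), with 3 residual degrees of freedom between gates and 4 between phases. Where a phase has few sums the p-values rest on the spread pooled over genes. DESeq2 1.42.0 was an alternative. Thinning drew 12488 counts from each cell and left out 64 cells. Sums, intervals and plots came from Python 3.11.15 with pandas 2.3.3, numpy 2.4.6, matplotlib 3.10.9 and scipy 1.17.1. The methods were tested on simulated data, of which no result is given here, so nothing about their error rates follows. All 10 genes are named in each comparison, with the 2 members of each list that had the largest difference between activated and quiescent cells among those with at least 100 counts, of which a selection is given, and the 3 genes of highest r. The genes and lists were chosen with earlier results of these data known.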

Additional observations from a re-analysis of the deposited data

Results flagged for a closer look

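Each gene's 4 gate values in a culture, and its 4 differences between gates over cultures, were searched for 1 value far from the other 3. Of 50 such groups 6 held one, where chance gives about 1 in 20. Map1b in the Low-mid gate of the quiescent culture stood at 47.7 CPM, against 0.851 to 2.38 CPM in the other gates, and holds the single cell with 50.3 counts. Tuba1a in the Low gate at 48 h stood at 790 CPM, against 644 to 664 CPM. Tubb5 in the Mid-high gate at 48 h stood at 1298 CPM, against 1100 to 1124 CPM. Tubb2b stood at 136 CPM in the High gate at 48 h, against 96.0 to 99.1 CPM, and at 205 CPM in the High gate of the activated culture, against 249.02 to 253 CPM. Tubb2a in the Mid-high gate of the activated culture stood at 563 CPM, against 474 to 488 CPM.

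Wells outside the per-cell table also held transcripts of the 10 genes. On the plate of quiescent and 24 h exit cells, 59 such wells held 180.1 counts of them, 0.132% of all counts there, in 32 wells. On the plate of activated and 48 h exit cells, 69 such wells held 446 counts, 0.292% of all counts, in 39 wells. Both lie above the limit of 3 counts that a count of 0 allows. No state or gate is given for these wells.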

How the results depend on the processing

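Each count of genes was computed again under alternatives, of which those restricted to 1 phase class or to G0 or to S and G2/M cells, and those without the quiescent cell rich in Map1b, were chosen after seeing the data. Between activated and quiescent cells all alternatives gave counts within 1.5 times the 8 past 2-fold. Between 24 h exit and quiescent cells the count of 1 became 3 with 1 CPM added, 3 with spike-in scaling, 3 in the Low-mid gate, 2 with cells thinned, 2 as the mean of cells' CPM, 2 without Rn45s, mitochondrial and ribosomal protein genes, and 0 in the High gate. Between 48 h and 24 h the 5 became 0 in G0 cells, where Tuba1c reversed to -0.10 on 0 against 2.00 counts. For G0 cells alone no share of all genes past 2-fold is given beside this count. Between 48 h and activated cells the 2 became 4 with 1 CPM added, 4 in the Low-mid gate, 1 without Rn45s, mitochondrial and ribosomal protein genes and 1 with whole identifier counts. Spike-in scaling moved the median log2 ratio of all genes to 0.45, -0.32, 0.40 and -0.36 in the 4 comparisons as ordered in the report, and under it Tubb3 was no longer 2-fold lower in activated than in quiescent cells.

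Between gates the 1 gene called became 2 without a filter on low counts (Tuba1c and Tubb2a), 0 with DESeq2, 0 without the culture block, 0 with cells thinned and 0 with 1 phase class per culture. DESeq2 gave no adjusted p for 3 of the 10 genes. With all gates as a linear rank the 1 gene called was Tubb2a in place of Tuba1c, against 638 of 8934 genes. Leaving out 1 culture at a time gave 0 to 1. Between phases, G1 against G0 went from 2 to 5 genes without a filter, S against G0 from 5 to 3 with DESeq2, and G2/M against S from 1 to 2 with sums of at least 20 cells and 1 to 3 with 1 culture left out. The causes were not tested. Of 460 recomputed tested differences of single genes, 419 kept their direction and their side of the threshold, 19 lost their call and 22 gained one. The ratios between cultures were less stable. Of 490 recomputed ratios of single genes, 297 stayed inside the counting interval of the main ratio, 192 moved outside it and 1 reversed. Of 100 recomputed counts of genes, 76 stayed within 1.5 times the main count and 24 did not. Between states no paired analysis was possible because each state has 1 culture, while the tests between gates and between phases already compare within culture.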
